A study of Mus musculus with 8 samples.

Results

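The 10 genes described here encode integrin subunits for collagen, laminin, fibronectin and other RGD ligands: Itga1, Itga2, Itga3, Itga5, Itga6, Itgav, Itgb1, Itgb4, Itgb5 and Itgb6. They were chosen by symbol, with earlier results of these arrays known, from the 26 integrin subunits and the 19938 genes that the array measures under 1 gene symbol. All 10 were found, each read by 1 probe set. The rise of Itga2 in DA3 cells from co-culture and the levels of the subunits in each line were in view when the genes were picked. Their values are therefore a description of these arrays, and the p-values come from a fit over all 19938 genes.

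Integrins are receptors that bridge the extracellular matrix and the actin or keratin cytoskeleton, and each is a pair of an alpha and a beta subunit. The alpha subunit largely sets the ligand. Itgb1 pairs with Itga1 and Itga2 into collagen receptors, with Itga3 and Itga6 into laminin receptors and with Itga5 into the main fibronectin receptor. Itgb4 pairs with Itga6 in hemidesmosomes, the anchors of epithelial cells to basement membrane, and Itgb5 and Itgb6 pair with Itgav into receptors that read the RGD motif of vitronectin, fibronectin and latent TGF-beta. In bone, stromal cells lay down collagen and fibronectin, and a carcinoma cell that settles there meets both.

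The 8 mouse Affymetrix MoGene ST arrays fall into 4 groups of 2, and each cell type is represented by 1 line. MBA-15 is a stromal line of pre-osteoblastic type and DA3 a mammary adenocarcinoma line, with no treatment or engineered allele named in the labels. The groups are MBA-15 from co-culture, MBA-15 labelled as grown alone, DA3 grown alone and DA3 from co-culture, grown in 1 serum-containing medium. All 8 sample descriptions name 24 h, where the growth protocol allows for a longer time too. In co-culture DA3 cells were seeded onto an MBA-15 layer, and the lines were parted with magnetic particles against EpCAM, so the DA3 group is the positive and the MBA-15 group the negative fraction. The question was how bone stromal and breast carcinoma cells act on each other. Each of the 4 alone arrays is described with the term mix and as a positive or negative fraction. Separate cultures for the 2 arrays of a group are not stated in the labels, so the p-values reflect a spread between samples that could be technical.

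The deposited values are log2 expression, and the array medians lay between 4.479 and 4.642. A level below 4.479 is called dim here, since no detection call comes with the values, and a change that starts from a dim level can be understated. Epcam, the epithelial glycoprotein used for the separation, stood at 5.58 and 5.19 in co-cultured MBA-15, at 9.57 and 9.46 in DA3 alone and at 9.30 and 9.38 in co-cultured DA3. On the arrays labelled as MBA-15 alone it stood at 8.45 and 9.25, which goes against their label. The mean of 17 epithelial markers was 7.58 and 8.07 there, against 4.94 and 4.84 in co-cultured MBA-15 and 8.28 to 8.80 in the 4 DA3 arrays. The mean of 18 stromal markers was 7.87 and 7.62 in co-cultured MBA-15, 7.36 and 7.30 in the arrays labelled as MBA-15 alone, 4.85 and 4.88 in DA3 alone and 5.85 and 5.43 in co-cultured DA3. Of 6 leukocyte markers 5 were dim on every array, and of 6 endothelial markers 6 were. The co-cultured MBA-15 fraction therefore stands for MBA-15 where the lines are compared. DA3 alone against co-cultured MBA-15 thus differs in line and in culture, which cannot be told apart in that comparison. Less RNA per cell and fewer cells of a type cannot be told apart in these bulk samples either.

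The collagen receptors gave the single largest change of the 10 genes. Itga2, the alpha subunit of an epithelial collagen receptor, was low on the 6 arrays of the other groups and high on both arrays of co-cultured DA3. Itga1, the alpha subunit of the collagen receptor of mesenchymal cells, was dim on all 8 arrays. The genes lie side by side on chromosome 13, with no other coding gene between them, and the 250 bases before each RefSeq start (GRCm38.p6, minus strand) are shown because Itga2 carries the change and Itga1 is its neighbour. Itga2 is given at chr13:114932101-114932350 and Itga1 at chr13:115101965-115102214, each 5′ to 3′, in lower case because none of the motifs searched occurs in either.
Itga2: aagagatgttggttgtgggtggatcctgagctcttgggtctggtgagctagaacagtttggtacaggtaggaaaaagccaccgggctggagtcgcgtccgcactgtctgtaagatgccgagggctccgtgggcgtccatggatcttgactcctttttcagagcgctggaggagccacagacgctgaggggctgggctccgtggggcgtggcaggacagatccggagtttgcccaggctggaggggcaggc
Itga1: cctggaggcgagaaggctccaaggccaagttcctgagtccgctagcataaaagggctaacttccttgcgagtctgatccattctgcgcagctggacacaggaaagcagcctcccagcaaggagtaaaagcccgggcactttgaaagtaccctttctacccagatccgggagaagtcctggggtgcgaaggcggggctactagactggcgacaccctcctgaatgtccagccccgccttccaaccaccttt
The motifs were AP-1 (TGANTCA), an E-box read by ZEB and SNAI factors (CACCTG), a GC box (GGGCGG) and a TATA box (TATAAA), searched on both strands. Of 32851 RefSeq promoters of this length 6.75% hold the AP-1 letters, 17.2% the E-box, 32.7% the GC box and 12.4% the TATA box. The GC share of the window is 60.8% for Itga2 and 57.6% for Itga1. Both windows lack all 4 motifs, which says only that these letters are not in these 250 bases.

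In DA3 alone Itga2 stood at 4.26 and 4.02, and in co-cultured DA3 at 8.49 and 7.58. In co-cultured MBA-15 it stood at 4.22 and 5.01, and on the arrays labelled as MBA-15 alone at 3.94 and 3.81. The lowest co-cultured DA3 array thus lay above the highest of the other 6, of which all but 5.01 in co-cultured MBA-15 were dim. Itga2 rose in co-cultured DA3 by 3.89 ± 0.36 (SE, log2, n = 2 arrays a group) over DA3 alone, with an adjusted p of 0.0468 from limma. This gene passed with 8 of 19938 genes, 0.0401% (2 higher, 0.01%), and its pattern is why the family was chosen. Without 1 array 0 to 3 genes passed. Between arrays of assay number 3, the only one that both groups share, the difference was 4.47. The direction was the same in all 18 other settings tried, but the call was not. Several settings act on the spread alone and cannot alter this change, so the shared direction is partly fixed. Itga2 has 1 probe set, and leaving out an MBA-15 array does not touch the DA3 groups. The call was lost without each of the 8 arrays in turn, with changes of 3.44 to 4.35. Without both arrays labelled as MBA-15 alone, which add only to the estimate of the spread here, the adjusted p was 0.0821.

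Itga2 was also 3.42 ± 0.36 higher in co-cultured DA3 than in the MBA-15 cells of the same kind of culture (adjusted p = 0.00223, limma), and this difference passed in 18 of 18 other settings. Between DA3 alone and co-cultured MBA-15 its difference was -0.48 ± 0.36 (adjusted p = 0.536, unadjusted 95% interval -1.33 to 0.38). The order of its levels was co-cultured DA3 first, with the other 3 groups close together. Of 18 stromal markers 0 passed in co-cultured DA3 against DA3 alone with limma, where 0.0401% of all genes did. An unadjusted p under 0.05 was found for 13 of them and for 2973 of 19938 genes. The changes of the markers lay above 0 for 16 and below 0 for 2 (median 0.66, all genes 0.04). The 13 markers more than 2 log2 units apart between the lines stood a median of 8.3% and 4.2% of the way from DA3 alone to co-cultured MBA-15 on the 2 co-cultured DA3 arrays, on a linear scale. The part of these markers in the change of Itga2 was not tested.

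Itga1 stood at 4.08 and 4.32 in co-cultured MBA-15, 3.88 and 3.96 on the arrays labelled as MBA-15 alone, 3.51 and 3.44 in DA3 alone and 3.69 and 3.65 in co-cultured DA3. The MBA-15 arrays were higher than the DA3 arrays, but all 8 were dim. The fit put DA3 alone 0.73 below co-cultured MBA-15 (change -0.73 ± 0.13, adjusted p = 0.0149), a call that was lost without co-cultured MBA-15 array 2 (adjusted p = 0.0692), DA3 alone array 1 (0.0911) or DA3 alone array 2 (0.112). In co-culture Itga1 differed by 0.19 ± 0.13 in DA3 (adjusted p = 0.503) and by 0.28 ± 0.13 in MBA-15 (adjusted p = 0.578).

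**Figure D1:**
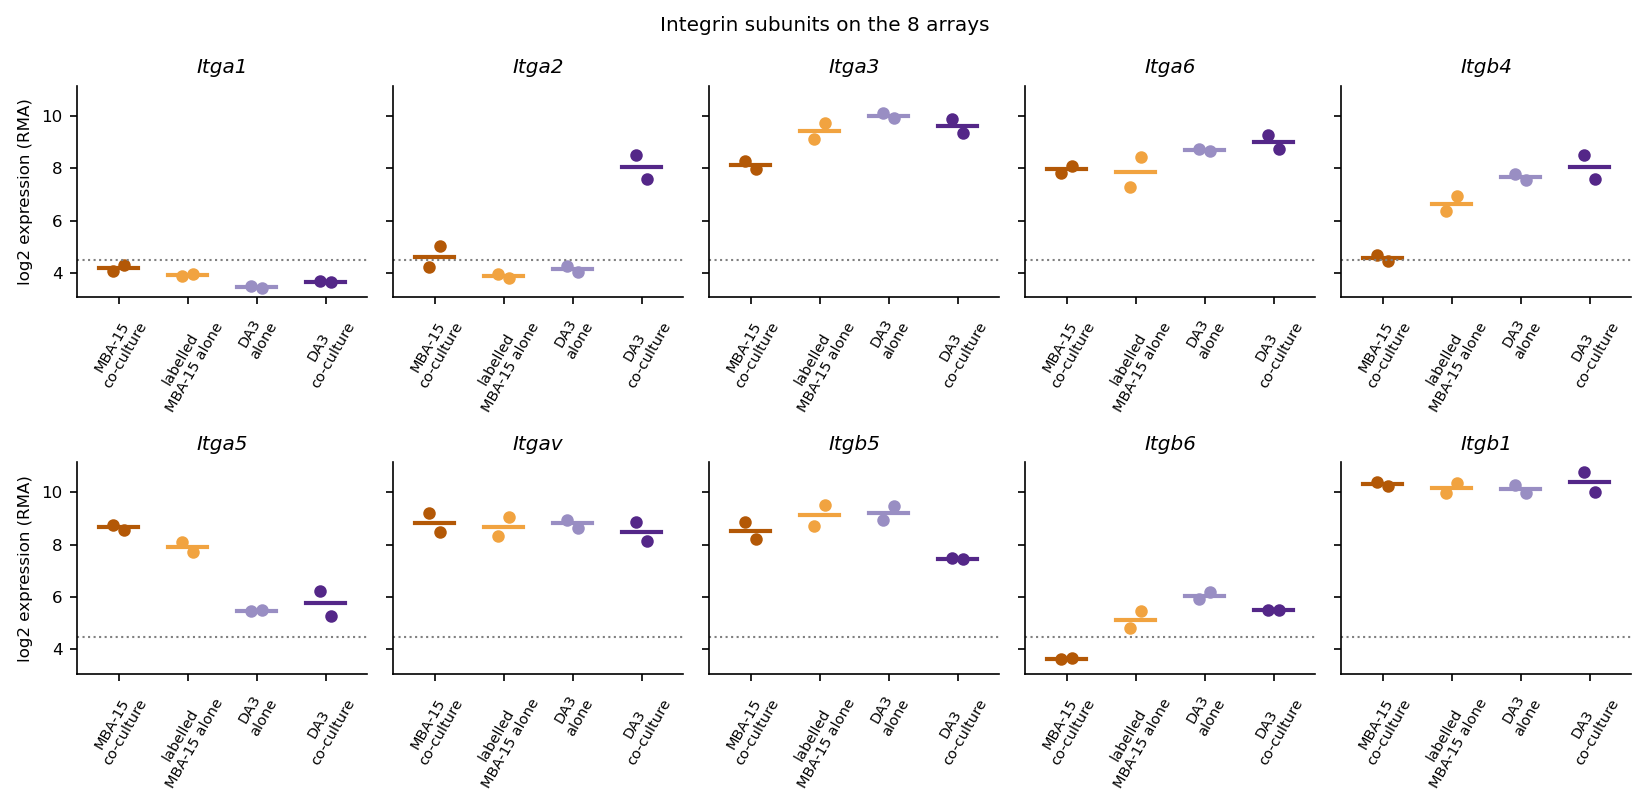
Log2 expression (RMA) of the 10 integrin subunits on the 8 arrays, 2 points a group, with a line at each group mean and a dotted line at the lowest array median, 4.479. Itga2 stands at 8.49 and 7.58 in co-cultured DA3 and at 5.01 or lower on the other 6 arrays, and Itgb4 and Itgb6 on the arrays labelled as MBA-15 alone lie between co-cultured MBA-15 and DA3 alone.

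Of the laminin receptor subunits, Itgb4 and Itga3 were higher in the carcinoma line. Itgb4, whose long cytoplasmic tail ties hemidesmosomes to keratin, stood at 7.78 and 7.55 in DA3 alone and 8.51 and 7.57 in co-cultured DA3, against 4.67 and 4.44 in co-cultured MBA-15. The difference between DA3 alone and co-cultured MBA-15 was 3.10 ± 0.33 (adjusted p = 0.0019, limma), and the groups did not overlap. Itga3, the alpha subunit of a laminin receptor of epithelial cells, was high in both lines, at 8.27 and 7.98 in co-cultured MBA-15 and 10.11 and 9.91 in DA3 alone. It was 1.88 ± 0.27 higher in DA3 alone (adjusted p = 0.00579), and without DA3 alone array 1 it was 1.78 higher and missed the threshold (adjusted p = 0.0561). Itga6, the partner of Itgb4 and of Itgb1, stood at 7.80 and 8.10 in co-cultured MBA-15 and 8.72 and 8.65 in DA3 alone. That difference, 0.74 ± 0.38, did not pass (adjusted p = 0.311, interval -0.16 to 1.64), and Itga6 was well above the dim level in both lines.

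In co-cultured DA3 the laminin receptor subunits did not pass a test against DA3 alone. Itgb4 differed by 0.38 ± 0.33 (adjusted p = 0.587), Itga6 by 0.30 ± 0.38 (adjusted p = 0.696) and Itga3 by -0.40 ± 0.27 (adjusted p = 0.49). Their intervals, -0.42 to 1.17, -0.61 to 1.20 and -1.04 to 0.24, leave room for rises or falls of about 1 log2 unit. The co-cultured DA3 arrays themselves stood apart for these genes, with Itgb4 at 8.51 and 7.57, Itga6 at 9.25 and 8.72 and Itga3 at 9.88 and 9.34, each higher on array 1.

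The fibronectin receptor subunit went the other way. Itga5, which pairs with Itgb1 and binds fibronectin, stood at 8.76 and 8.55 in co-cultured MBA-15 and 8.12 and 7.73 on the arrays labelled as MBA-15 alone. In DA3 it was 5.45 and 5.50 alone and 6.24 and 5.28 in co-culture. DA3 alone lay 3.18 below co-cultured MBA-15 (change -3.18 ± 0.31, adjusted p = 0.00136, limma), the largest difference among the 10 genes in that comparison, and it passed in 18 of 18 other settings. In co-cultured DA3 Itga5 differed from DA3 alone by 0.29 ± 0.31 (adjusted p = 0.649, interval -0.46 to 1.03), and the part of the stromal markers, at 8.3% and 4.2% of the way to co-cultured MBA-15, was not tested.

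Of the RGD receptor subunits Itgb6 was higher in the carcinoma line. Itgb6, an epithelial subunit whose receptor activates latent TGF-beta, was dim in co-cultured MBA-15 at 3.63 and 3.66 and stood at 5.91 and 6.18 in DA3 alone and 5.52 and 5.49 in co-cultured DA3. DA3 alone was 2.40 ± 0.22 higher (adjusted p = 0.000959, limma), a call kept in 18 of 18 other settings. Itgb5, the broadly expressed subunit of a vitronectin receptor, was bright in all groups, at 8.85 and 8.22 in co-cultured MBA-15 and 8.95 and 9.47 in DA3 alone. Its difference between the lines was 0.68 ± 0.33 (adjusted p = 0.293, interval -0.12 to 1.48). Itgav, their shared alpha subunit, stood at 9.19 and 8.48 in co-cultured MBA-15 and 8.96 and 8.65 in DA3 alone, a difference of -0.03 ± 0.37 (adjusted p = 0.982, interval -0.91 to 0.85) that turned to 0.02 with array medians centred.

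Itgb5 was the subunit with the largest change in DA3 beside Itga2, in the opposite direction. In co-cultured DA3 it stood at 7.50 and 7.44, below all 6 other arrays, of which the lowest was 8.22. The change from DA3 alone was -1.74 ± 0.33 (unadjusted p = 0.0015, adjusted p = 0.147, interval -2.54 to -0.94), and it did not pass in any of 18 other settings, where it ran from -2.00 to -1.48. Between arrays of assay 3 the difference was -1.97. Its window is shown because it, unlike that of Itga2, holds motif letters, in capitals: 3 GC boxes, the closest of them 34 bases before the start, and 1 E-box, 109 bases before it. The window lies at chr16:33829415-33829664 on the plus strand (GRCm38.p6, RefSeq), with a GC share of 65.2%.
Itgb5: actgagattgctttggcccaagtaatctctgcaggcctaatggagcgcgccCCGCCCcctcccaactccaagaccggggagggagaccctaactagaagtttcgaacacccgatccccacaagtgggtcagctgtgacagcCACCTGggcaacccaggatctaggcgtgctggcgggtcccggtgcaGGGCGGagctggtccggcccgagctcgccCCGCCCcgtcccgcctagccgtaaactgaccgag
The 8 members with a RefSeq promoter here (Itga6 and Itgb4 have none) gave 10 windows, 2 each for Itgb6 and Itga3. A GC box occurs in 5 of the 10 windows (Itgb1, Itga3 in both, Itga5 and Itgb5), against 32.7% of all promoters. The E-box occurs in 3 of the 10 (Itgb6 and Itga3 in 1 of 2 windows each, and Itgb5), against 17.2%. The AP-1 letters occur in 0, against 6.75%, and the TATA box in 0, against 12.4%.

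Itgb6 differed from DA3 alone by -0.54 ± 0.22 in co-cultured DA3 (adjusted p = 0.322), with both arrays below both DA3 alone arrays. Itgav differed by -0.31 ± 0.37 (adjusted p = 0.677), and the change was 0.09 with assay number as a block. Itgb1, the common beta subunit, stood between 9.97 and 10.77 on all 8 arrays, with no group apart from the rest. It differed by 0.26 ± 0.28 in DA3 (adjusted p = 0.643, interval -0.40 to 0.93), by 0.14 ± 0.28 in MBA-15 (adjusted p = 0.915) and by -0.19 ± 0.28 between DA3 alone and co-cultured MBA-15 (adjusted p = 0.814).

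**Figure D2:**
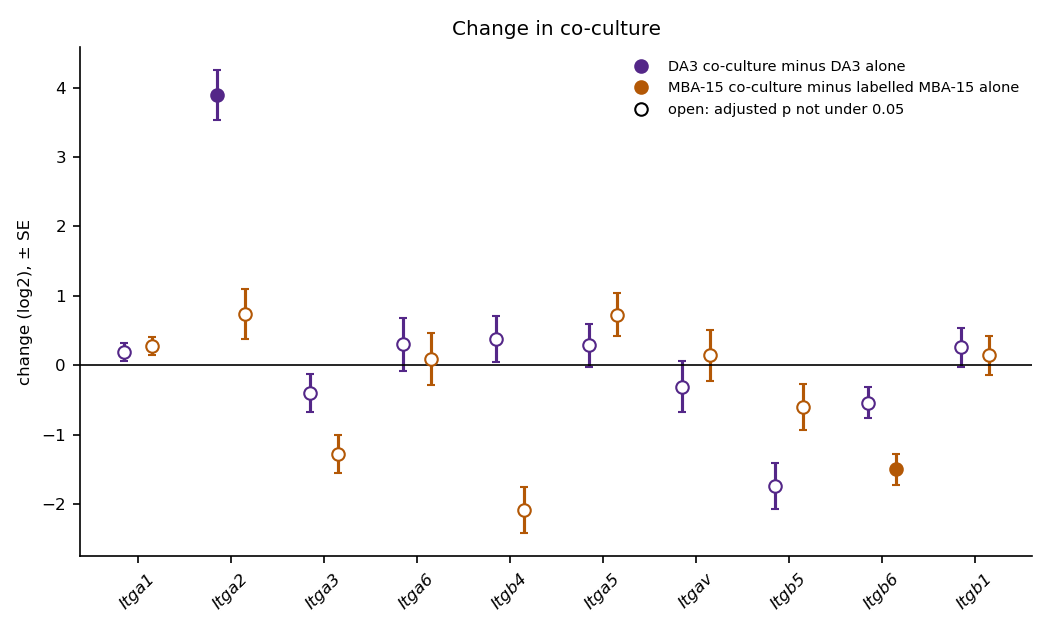
Change of each integrin subunit in co-culture (log2, points with the SE of the fit), for DA3 against DA3 alone and for MBA-15 against the arrays labelled as MBA-15 alone, filled where the adjusted p is under 0.05. Itga2 in DA3 (3.89) and Itgb6 in MBA-15 (-1.50) are the filled points, and Itgb5 in DA3 (-1.74) and Itgb4 in MBA-15 (-2.09) are the largest open ones.

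Between DA3 alone and co-cultured MBA-15, which differ in line and in culture, 5 of the 10 genes passed. Itga3, Itgb4 and Itgb6 were higher in DA3 alone and Itga1 and Itga5 higher in co-cultured MBA-15. Over all genes 12.6% passed in that comparison (6.47% higher and 6.08% lower), and the median change was 0.32 over the members and 0.00 over all genes. The share of called genes rests on single arrays, since 995 genes passed without DA3 alone array 1 and 1068 without array 2, against 2503 with all arrays. Without both arrays labelled as MBA-15 alone 5 members passed, as with them. In co-cultured DA3 against co-cultured MBA-15 6 of the 10 passed, the 5 genes above and Itga2, where 12.8% of all genes did (4.48% higher and 8.28% lower), or 2545 genes, against 1642 without co-cultured MBA-15 array 2. Itgb4 was 3.48 ± 0.33 higher there (adjusted p = 0.00159), Itgb6 1.86 ± 0.22 higher (adjusted p = 0.00323), Itga3 1.48 ± 0.27 higher (adjusted p = 0.0157) and Itga5 differed by -2.90 ± 0.31 (adjusted p = 0.00242). The call of Itga3 was lost without co-cultured MBA-15 array 2 (adjusted p = 0.0767) or co-cultured DA3 array 1 (adjusted p = 0.0537). Itga1 at -0.53 ± 0.13 (adjusted p = 0.0455) passed in 5 of 17 other settings only. Itgb5 at -1.06 ± 0.33 (adjusted p = 0.0931), Itga6 at 1.04 ± 0.38 (adjusted p = 0.133), Itgav at -0.34 ± 0.37 (adjusted p = 0.589) and Itgb1 at 0.08 ± 0.28 (adjusted p = 0.887) did not pass. The comparisons share the co-cultured MBA-15 arrays, so the values stand side by side and are not independent.

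**Figure D3:**
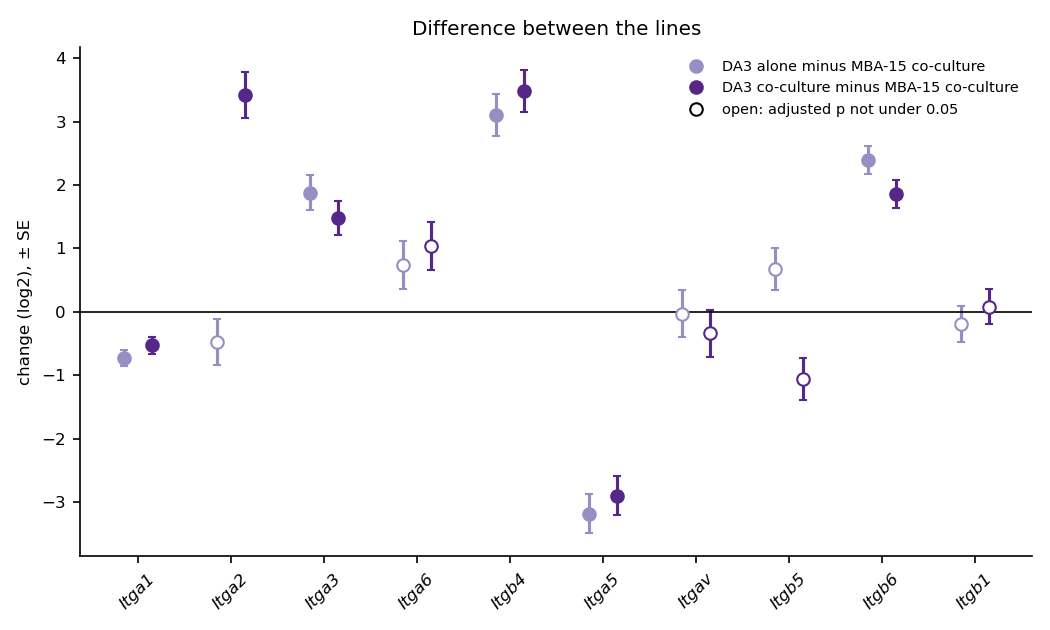
Difference of each integrin subunit between the lines (log2, points with the SE of the fit), for DA3 alone and for co-cultured DA3 against co-cultured MBA-15, filled where the adjusted p is under 0.05. Itgb4 (3.10 and 3.48) and Itgb6 (2.40 and 1.86) lie high in DA3 and Itga5 (-3.18 and -2.90) low, while Itga2 is filled for co-cultured DA3 (3.42).

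In MBA-15, 1 of the 10 members passed between co-culture and the arrays labelled alone. Itgb6 passed lower in co-cultured MBA-15, by -1.50 ± 0.22 (adjusted p = 0.0384), with 3.63 and 3.66 against 4.83 and 5.45. Over all genes 0.848% passed (0.772% lower), 169 genes, against 13 without co-cultured MBA-15 array 2, 43 without labelled alone array 2, 80 without either DA3 alone array and 108 without co-cultured MBA-15 array 1. Itgb4 differed by -2.09 ± 0.33 (adjusted p = 0.054), from 6.37 and 6.93 on the arrays labelled alone to 4.67 and 4.44. It passed with assay number, which both groups share, as a block (-2.09, adjusted p = 0.0397, with changes of -2.49 in assay 3 and -1.70 in assay 4), and in 5 of 17 other settings in all, whose adjusted p ran from 0.0122 to 0.37. Itga3 differed by -1.28 ± 0.27 (adjusted p = 0.126), from 9.11 and 9.71 to 8.27 and 7.98. These are the 3 members that were higher in DA3 alone than in the stromal line. Itga5, higher in MBA-15, differed by 0.73 ± 0.31 the other way (adjusted p = 0.515), Itga2 by 0.74 ± 0.36 (adjusted p = 0.599), Itgb5 by -0.60 ± 0.33 (adjusted p = 0.666), Itgav by 0.14 ± 0.37 (adjusted p = 0.936) and Itga6 by 0.09 ± 0.38 (adjusted p = 0.961). The call of Itgb6 was lost without co-cultured MBA-15 array 1 (0.0964) or 2 (0.202), without labelled alone array 2 (0.134), without either DA3 alone array (0.103) and without either co-cultured DA3 array (0.0587, adjusted p-values).

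On a linear scale, the levels of these genes on the arrays labelled as MBA-15 alone can be placed on the way from co-cultured MBA-15 to DA3 alone. On array 1 Itgb6 stood 29.7% of the way, Itgb4 33.0%, Itga5 35.1% and Itga3 35.9%, and 15 epithelial markers had a median of 42.9% (quartiles 32.3% to 49.9%). On array 2 Itga5 stood at 53.5%, Itgb4 at 54.7%, Itgb6 at 57.9% and Itga3 at 74.2%, with the markers at 59.1% (52.2% to 61.7%), so that Itga3 lay above their upper quartile. All 4 subunits were further along on array 2, as the markers were, and the part of the epithelial RNA in the lower Itgb6, Itgb4 and Itga3 of co-cultured MBA-15 was not tested.

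**Figure D4:**
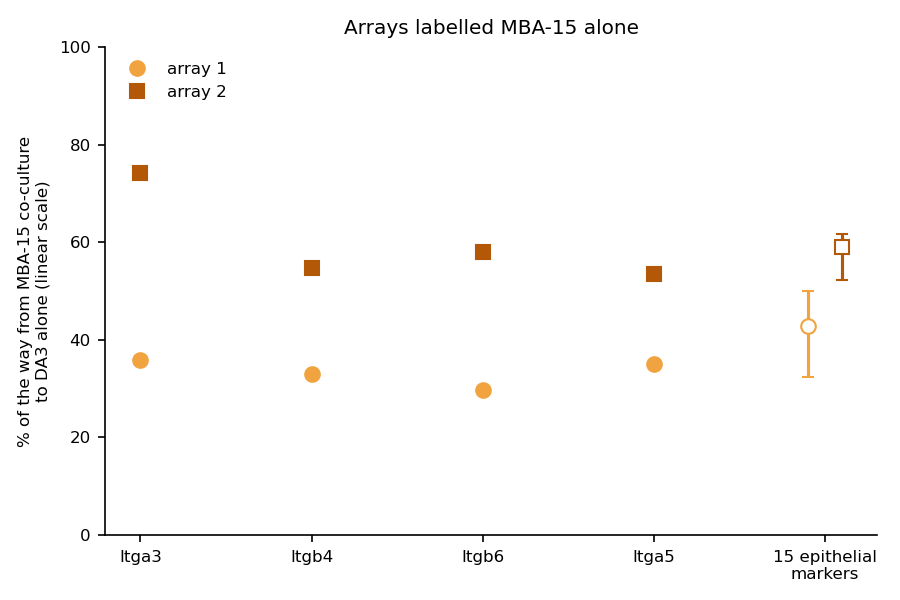
Position of Itga3, Itgb4, Itgb6 and Itga5 on the 2 arrays labelled as MBA-15 alone, as the percentage of the way from co-cultured MBA-15 to DA3 alone on the linear scale, beside the median and quartiles of 15 epithelial markers. Array 2 lies further along than array 1 for all 4 subunits and for the markers (42.9% and 59.1%).

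Whether a subunit changed differently in the lines was tested by the difference of the co-culture changes, DA3 minus MBA-15, in which 0 of the 10 members and 12 of 19938 genes (0.0602%, limma, 1260 at an unadjusted p under 0.05) passed. For Itga2 that difference was 3.15 ± 0.51 (adjusted p = 0.166), for Itgb4 2.47 ± 0.47 (0.247), for Itgb6 0.96 ± 0.30 (0.607), for Itgb5 -1.14 ± 0.47 (0.785) and for Itga3 0.88 ± 0.38 (0.802, adjusted p-values). The arrays labelled as MBA-15 alone, with Epcam at 8.45 and 9.25, enter each of these values. Only Itga2 passed in any other setting, with an intensity trend in the variance (3.15, adjusted p = 0.0206), and 0 to 8 genes passed without 1 array.

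Of the ligands of these receptors, collagens were lower in DA3 and some laminin chains higher. Of 10 collagen genes 9 passed lower in DA3 alone than in co-cultured MBA-15 and 0 passed higher (median change -3.16). Over all genes 6.08% were called lower. By sign all 10 collagens lay below 0. They were led by the fibrillar chains Col1a2 (-4.56 ± 0.36), Col5a2 (-4.42 ± 0.20) and Col1a1 (-4.08 ± 0.60) and by Col6a3 (-4.05 ± 0.37). Of 9 laminin chains 3 passed higher in DA3 alone and 0 passed lower (median 0.47), where 6.47% of all genes were called higher. These were Lama5 at 4.49 ± 0.37, Lamb3 at 2.61 ± 0.25 and Lama3 at 1.02 ± 0.22. By sign 5 chains lay above 0 and 4 below. Fn1, which encodes fibronectin, was the 1 gene of 7 fibronectin and RGD ligands that passed, at -3.70 ± 0.68 (adjusted p = 0.0156). That count is near the 12.6% called over all genes, and the list's median was -0.07. The co-cultured MBA-15 arrays held Fn1 at 11.52 and 10.36 and the DA3 alone arrays at 6.72 and 7.76.

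Inside the cell, 6 of 23 adaptors and kinases at the integrin tail passed between DA3 alone and co-cultured MBA-15, 2 higher and 4 lower. Tns4, an epithelial tensin, was 4.42 ± 0.39 higher and Fermt1, the epithelial kindlin that activates integrins, 3.20 ± 0.48 higher. Dab2, an endocytic adaptor of integrins, differed by -3.10 ± 0.28 and Parvb, an actin-binding parvin, by -3.04 ± 0.24. Of 7 hemidesmosome and tetraspanin partners 1 passed, Cd82, at -2.42 ± 0.27. By sign 6 of the 7 lay below 0 and 1 above. Among the 6, Dst (-1.33 ± 0.43, adjusted p = 0.103) and Plec (-0.97 ± 0.31, adjusted p = 0.101) did not pass with limma. Col17a1, the hemidesmosomal collagen, was dim or nearly so on all 8 arrays (4.14 to 4.52). Of 8 other matrix receptors 2 passed, Sdc1 at 1.08 ± 0.21 and Cd44 at 0.89 ± 0.18, both higher in DA3. Of 8 other integrin subunits only Itga7, a laminin-binding alpha subunit, passed (2.38 ± 0.31), and of 8 leukocyte and platelet subunits only Itgb2 (2.48 ± 0.24). Over the 8 lists 24 of 80 genes passed, 9 higher and 15 lower, where 12.6% of all genes did.

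In co-cultured DA3 against DA3 alone 0 of these 80 genes passed with limma, where 0.0401% of all genes did. An unadjusted p under 0.05 was found for 24 of the 80 and for 2973 of 19938 genes. The collagens lay above 0 in 10 of 10 genes (median 0.74, all genes 0.04), with Col1a1 at 1.92 ± 0.60 (adjusted p = 0.26) and Col1a2 at 1.81 ± 0.36 (adjusted p = 0.16). Col1a1, Col1a2, Col3a1, Col5a2 and Col6a3 are stromal markers too, so the lists are not independent. The part of the stromal markers, 8.3% and 4.2% of the way to co-cultured MBA-15, was not tested. The 9 laminins went both ways, with 6 above 0, 3 below and a median of 0.11. Lama3, at 5.86 and 5.38 in DA3 alone and 7.24 and 7.21 in co-culture, differed by 1.61 ± 0.22 (adjusted p = 0.0906). Lamb3, at 7.61 and 7.18 against 9.24 and 8.60, differed by 1.53 ± 0.25 (adjusted p = 0.134). On the other side Lama5, at 10.06 and 10.02 in DA3 alone and 9.15 and 8.30 in co-culture, differed by -1.32 ± 0.37 (adjusted p = 0.234). Lamc1 differed by -0.99 ± 0.33 (adjusted p = 0.276) and Lamb2 by -0.70 ± 0.23 (adjusted p = 0.278). Lama3 and Lamb3 encode chains of the epithelial laminin that hemidesmosomes bind. In co-cultured MBA-15 they stood at 4.35 and 4.85, and at 4.76 and 4.81, below every DA3 array. Itgb2 differed by -1.71 ± 0.24 (adjusted p = 0.094), Tgfb3 by -1.89 ± 0.45 (adjusted p = 0.199), Thbs1, an RGD ligand, by -1.34 ± 0.34 (adjusted p = 0.209), Cd82 by 1.23 ± 0.27 (adjusted p = 0.179) and Dag1, a laminin receptor outside the integrin family, by -1.20 ± 0.28 (adjusted p = 0.194).

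In co-cultured MBA-15 against the arrays labelled alone 2 of the 80 genes passed, 2.5%, where 0.848% of all genes did (0.772% lower). Both were lower and both are high in DA3: Lama5 at -3.61 ± 0.37 (adjusted p = 0.011) and Tns4 at -3.15 ± 0.39 (adjusted p = 0.0224). Epcam differed by -3.46 ± 0.27 in the same comparison, and 14 of 17 epithelial markers passed lower. The calls of this comparison fell from 169 genes to 13 without co-cultured MBA-15 array 2.

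**Figure D5:**
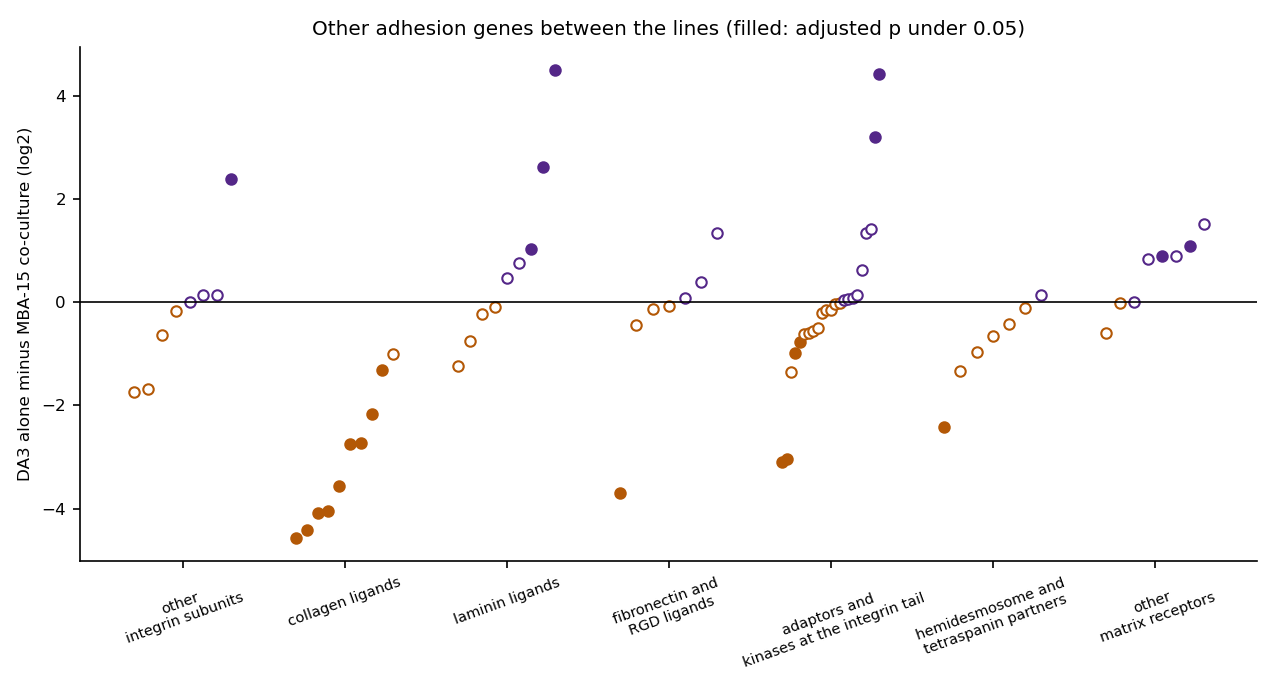
Difference between DA3 alone and co-cultured MBA-15 (log2) for each measured gene of 7 lists of integrin subunits, ligands, adaptors and receptors, 1 point a gene, filled where the adjusted p is under 0.05. The collagens lie below 0, with 9 of 10 filled, and the 3 filled laminins above 0, up to 4.49 for Lama5.

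The genes most like Itga2 were ranked by Pearson's r over the 8 arrays among 6940 genes with a range of at least 1 log2 unit. Serpinb2, an inhibitor of plasminogen activators, had r = 0.989, Mmp10, a matrix metalloproteinase, 0.986, Cpa4, a metallocarboxypeptidase, 0.985, Cyth4, a cytohesin, 0.983 and Cubn, an endocytic receptor, 0.979. Serpinb2 stood at 5.83 and 5.23 in DA3 alone and 9.39 and 9.19 in co-culture, and Mmp10 at 5.53 and 5.00 against 8.01 and 7.13. Cpa4 went from 3.92 and 3.86 to 6.49 and 6.30, Cyth4 from 3.65 and 3.46 to 4.51 and 4.44 and Cubn from 4.40 and 4.13 to 5.35 and 5.05. The points are 2 high arrays and 6 low ones in groups the arrays share, so r here describes which genes are high in co-cultured DA3 and no more.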

How the data were processed

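The 8 arrays were grouped by their titles, and the members and all gene lists were chosen with earlier results of these data known. The deposited log2 values were made by the authors with RMA and Partek 6.5, per the submitters' processing notes, and parameters are not given in the sources used here. RMA normalizes between arrays, which makes each change relative to the rest of the array. The assay number (3, 4 or 5), whose meaning the labels do not give, was taken from the descriptions. Assay number 5 belongs to co-cultured DA3 array 2 only. With assay number as a fixed block that array therefore adds nothing, and co-cultured DA3 rests on array 1. Of 35556 probe sets, 21789 had 1 symbol, 1621 several and 12146 were not listed, and per gene the probe set with the highest mean was kept, which left 19938 genes.

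Contrasts of group means over all 8 arrays came from lmFit and eBayes of limma 3.58.1, run in R 4.3.3 (4 residual and 2.6 prior degrees of freedom), two-sided, with Benjamini-Hochberg adjustment over all genes and a threshold of 0.05. Errors of a change are SE, and intervals are unadjusted. The fit was tested on simulated data. Normalization, centring, a dim filter (11728 genes left), the summary of probe sets, a variance trend, the arrays in the fit, replicate and assay blocks and leaving out each array were tried, and, after the data were seen, leaving out both arrays labelled MBA-15 alone. All 10 members are named, of each list up to 4 passing genes with the largest change or else up to 2, of all genes the 5 most like Itga2 without predicted loci, and Epcam. Col17a1, Lama5, Lamc1 and Lamb2 in DA3, and other genes of a list beyond these, were named after their values were seen.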

Additional observations from a re-analysis of the deposited data

How the results depend on the processing

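Members kept their direction and their call most often between DA3 alone and co-cultured MBA-15, and the changes in co-culture rest on few arrays. In DA3 co-culture against alone, 8 genes passed, against 1 with quantile normalization, 14 with medians centred, 56 with dim genes left out, 120 with a variance trend, 0 with the groups compared alone, 0 with an assay block, 2 without both arrays labelled MBA-15 alone and 0 to 3 without 1 array. The adjusted p of Itga2 was 0.0606 with quantile normalization (4.01), 0.171 with the groups compared alone (3.89), 0.087 with an assay block (4.28) and 0.0821 without both arrays labelled MBA-15 alone (3.89), so that 0 members passed there and 0 without 1 array, where Itga2 ran from 3.44 to 4.35.

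The replicate numbers were not taken to pair the samples. Over genes, the difference of array 1 minus array 2 correlated between groups at -0.413 to 0.311. Array 1 has assay number 4 in the other groups but 3 in co-cultured DA3, so these values do not decide whether the samples are paired. With a replicate block 3 genes passed in DA3 (Itga2 3.89, adjusted p = 0.0585, 0 members) and 0 in the difference of the changes.

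In MBA-15, 169 genes passed, against 326 with the trend, 28 with the groups compared alone and 13 to 198 without 1 array (13 without MBA-15 co-culture array 2, 43 without labelled alone array 2, 80 without either DA3 alone array, 108 without MBA-15 co-culture array 1). The members were 2 with dim genes left out, the trend or an assay block, as Itgb4 joined (adjusted p 0.017, 0.0122 and 0.0397), 0 with the groups compared alone and 0 to 1 without 1 array. Between DA3 alone and MBA-15 co-culture 995 to 2870 genes and 3 to 5 members passed without 1 array, and between the fractions 1123 genes with the groups compared alone and 1642 to 2229 without 1 array. In the difference of the changes 25 genes passed with quantile normalization, 31 with dim genes left out, 36 with the trend (1 member), 0 with an assay block and 0 to 8 without 1 array. The cause was not tested.

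Changes that did not pass turned sign for some members. Itgav came to 0.09 in DA3 and 0.06 between the fractions with an assay block and to 0.02 between DA3 alone and MBA-15 co-culture with medians centred. In the difference of the changes Itgb1 came to -0.02 with medians centred and Itga5 to 0.12 with an assay block. Without 1 array, the change in DA3 ran from -0.19 to 0.76 for Itga5, -0.66 to 0.04 for Itgav, -0.12 to 0.64 for Itgb1 and -0.09 to 0.84 for Itgb4. In MBA-15 it ran from -0.49 to 0.67 for Itga6, -0.23 to 0.51 for Itgav and -0.05 to 0.32 for Itgb1. Between the lines Itgav ran from -0.38 to 0.32, and between the fractions Itgav ran from -0.69 to 0.01 and Itgb1 from -0.31 to 0.46. The difference of the changes ran from -0.21 to 0.03 for Itga1, -0.92 to 0.03 for Itga5, -0.37 to 0.79 for Itga6 and -0.26 to 0.51 for Itgb1. The groups compared alone give no value for that difference, which uses all 4 groups, and leaving out both arrays labelled MBA-15 alone gives none for it or for MBA-15.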
